A study of Homo sapiens with 2 samples.

Results

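The 10 genes described here are the RNAs of the NF-kB subunits, their inhibitors and their regulators: NFKB1, NFKB2, RELA, RELB, REL, NFKBIA, NFKBIE, TNFAIP3, TRAF3 and MAP3K14. They were taken by name from the 57485 genes listed for each library, and all 10 were found. RNA was sequenced from ARP1 cells, an established line of human multiple myeloma (MM), which carried a lentiviral hairpin RNA that doxycycline (Dox) switches on. One library was labelled untreated and 1 was labelled as treated with Dox, so there were 2 libraries and 1 per condition. Both titles name SRD5A1, a steroid 5α-reductase, as the target of the hairpin, while the genotype label names SRD5A1 for the untreated library and SRD5A2 for the library labelled with Dox. Neither the dose of Dox nor its duration is given for these libraries, both libraries come from a single line, and no library of cells treated with Dox without a hairpin was analysed here, so Dox and the hairpin cannot be told apart.

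NF-kB is a family of dimeric transcription factors that share a Rel homology domain. In the canonical arm, signals such as TNF make the IKK complex mark the IkB inhibitors for destruction, which frees dimers of RELA or REL with p50, a product of NFKB1. In the noncanonical arm, the kinase NIK, encoded by MAP3K14, is kept low by TRAF3 until receptors such as BAFF-R or CD40 are engaged, and its accumulation leads to the processing of p100, the product of NFKB2, to p52, which pairs with RELB. MM cells are known for lesions of genes in this pathway, and several of its members are themselves known target genes of NF-kB.

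Since many members are known to carry NF-kB sites, the promoters were read for the kB decamer, which is 3 guanines, a purine, any 2 bases, 2 pyrimidines and 2 cytosines. RefSeq windows of 300 bases (250 before and 50 after a start site, build GRCh38.p14) were found for 8 of the 10 members, and RELB and NFKBIE had none in the table. A decamer on either strand stood in 7 of the 12 member windows, compared with 11.3% of the 35116 windows of all genes. It was found in 6 of the 8 members, compared with 13.3% of the 27305 genes with a window, and the windows of RELA and MAP3K14 held none. For each window with a decamer, the 30 bases around the one nearest to the start site are shown, in the direction of the gene and with the decamer in capitals. In NFKBIA, REL and TNFAIP3 the decamer reads on the opposite strand, and that of REL overlaps a further match on the strand of the gene.
NFKB2 at chr10:102394490-102394519: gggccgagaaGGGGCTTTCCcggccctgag
NFKB2 at chr10:102395674-102395703: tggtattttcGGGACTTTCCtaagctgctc
NFKB1 at chr4:102501300-102501329: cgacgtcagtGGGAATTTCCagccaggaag
REL at chr2:60881518-60881547: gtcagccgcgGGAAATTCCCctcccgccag
NFKBIA at chr14:35404811-35404840: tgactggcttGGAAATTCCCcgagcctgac
TNFAIP3 at chr6:137867194-137867223: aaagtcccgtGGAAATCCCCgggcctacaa
TRAF3 at chr14:102777406-102777435: cgggcgcgccGGGGATTTCCagcgcgcgag
The decamers nearest to the start site begin between 21 and 81 bases before it. A match describes the letters only, and binding was not measured.

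The levels used here are the FPKM values that the authors deposited, which divide the fragments of a gene by its effective transcript length and by the library's total. In all, 45918570 expected counts lay behind them without the Dox label and 48728927 behind those labelled with Dox. A log2 ratio has the FPKM labelled with Dox plus 0.1 over the FPKM labelled without Dox plus 0.1, and a gene past 2-fold is one with a log2 ratio above 1 or below -1. No replicate of either condition was sequenced, so a difference has no replicate check and no test was possible. The 95% intervals are exact Clopper-Pearson intervals of the split of the counts, or exact Poisson intervals of a level, and cover counting error only. SRD5A1 itself was listed at 13.04 FPKM without Dox and 25.88 FPKM with Dox, a log2 ratio of 0.98, which goes against the label of a knockdown, so every direction below rests on the labels, and with Dox and without Dox stand for the libraries so labelled. All 9 plasma cell and myeloma markers examined were above 1 FPKM, and 2 of them were past 2-fold higher and 0 lower. Their summed levels were 7842 FPKM without Dox and 5820 FPKM with Dox. JCHAIN, the joining chain of secreted antibodies, took 5444 and 3515 FPKM of these sums, and the other 8 markers summed to 2398 and 2305 FPKM. For the markers of T, myeloid, epithelial and fibroblast cells the summed levels lay between 0.22 and 1.95 FPKM, and CD3D and CD2 were at 0 counts in both libraries. In bulk RNA, fewer cells of a type and less RNA per cell cannot be told apart.

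Genes were tested if either library listed them at 1 FPKM or more. Of 14859 such genes, 17.0% were past 2-fold higher with Dox and 6.41% past 2-fold lower, and the median log2 ratio was 0.15. Among the 11459 protein-coding genes of these, the shares were 11.8% and 6.03% and the median was 0.07. All 10 members passed this filter. Of them, 2 were past 2-fold higher and 0 past 2-fold lower, 8 had a ratio above 0 and 2 below, and the median was 0.46. A ratio above 0 was held by 58.4% of all tested genes and 54.3% of the protein-coding ones. The 2 genes past 2-fold were RELB and NFKB2, the subunits that form the noncanonical dimer. The order of these ratios can be seen in the plot of each member under each scaling.

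**Figure D1:**
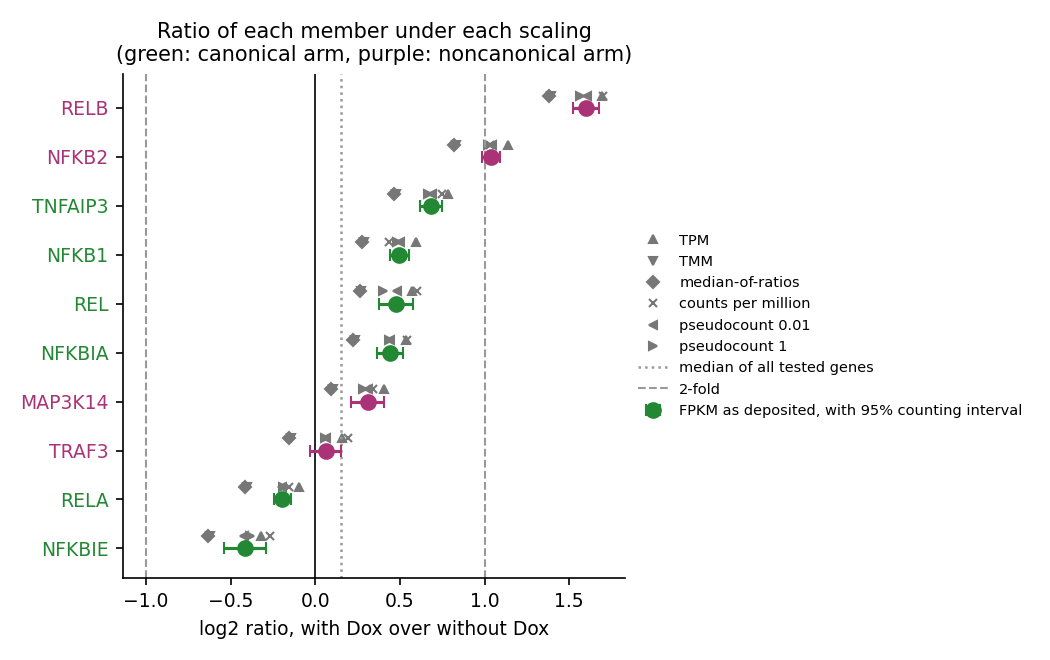
Log2 ratio of FPKM, with Dox over without Dox, of the 10 members (coloured points, bars are 95% counting intervals) and the same ratio with other pseudocounts and scalings (grey symbols). RELB at 1.60 stands past the dashed 2-fold line in every setting drawn, NFKB2 at 1.04 lies near it, and RELA and NFKBIE lie below 0.

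RELB (ENSG00000104856.13, chromosome 19 from 45001430 to 45038198) is the subunit that carries the transactivation domain of the noncanonical dimer. It was listed with 1889 counts and 23.13 FPKM without Dox and with 6509 counts and 70.28 FPKM with Dox. The log2 ratio was 1.60 (interval 1.53 to 1.67), which is 3.03-fold, and stood above that of 95.4% of the tested protein-coding genes.

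NFKB2 (ENSG00000077150.18, chromosome 10 from 102394110 to 102402529) encodes p100, which is both an inhibitor of RELB and the precursor of p52. Its level was 37.46 FPKM from 4148 counts without Dox and 77.14 FPKM from 8989 counts with Dox. The log2 ratio of 1.04 (interval 0.99 to 1.09) was just past the 2-fold line, and it fell short of it with the TMM and median-of-ratios scalings, at 0.83 and 0.82. Of its 3 start site windows, 2 held decamers, with 4 and 3 matches over both strands. Only the match nearest to the start site is shown above for each.

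RELA (ENSG00000173039.18, chromosome 11 from 65653596 to 65663094) encodes p65, the main transactivating subunit of the canonical arm. It had the highest level of the 10 members without Dox, at 74.29 FPKM, and was listed at 64.94 FPKM with Dox. The log2 ratio was -0.19 (interval -0.25 to -0.14). Its sign was the same with TPM, TMM, median-of-ratios and CPM, the only other settings that could turn it. The counts behind these levels were 5951 and 5676.

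NFKB1 (ENSG00000109320.11, chromosome 4 from 102501329 to 102617302) encodes p105, the precursor of p50. Its level was 26.38 FPKM from 4167 counts without Dox and 37.26 FPKM from 5982 counts with Dox, a log2 ratio of 0.50 (interval 0.44 to 0.55). REL (ENSG00000162924.14, chromosome 2 from 60881521 to 60931610), the c-Rel subunit known for its role in lymphocytes, had the lowest level of all members, at 4.09 FPKM without Dox and 5.73 FPKM with Dox. Its log2 ratio was 0.48 (interval 0.37 to 0.58). The level of REL is less certain than the others, since 5702 bases of its exons are shared with the noncoding gene AC010733.2 on the same strand, which was listed with 2170 and 3633 counts beside 1264 and 2039 for REL.

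The subunits stood in different proportions in the 2 libraries, as the bars of the make-up of Rel family RNA show. Summed over the 5 subunits, the level was 165.4 FPKM without Dox and 255.4 FPKM with Dox. RELA made up 44.9% of the sum without Dox and 25.4% with Dox. RELB made up 14% and 27.5%, and NFKB2 made up 22.7% and 30.2%. NFKB1 was at 16% and 14.6%, and REL at 2.47% and 2.24%. Together NFKB2 and RELB took 36.6% of Rel family RNA without Dox and 57.7% with Dox, and these shares do not depend on how the libraries are scaled to each other.

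**Figure D2:**
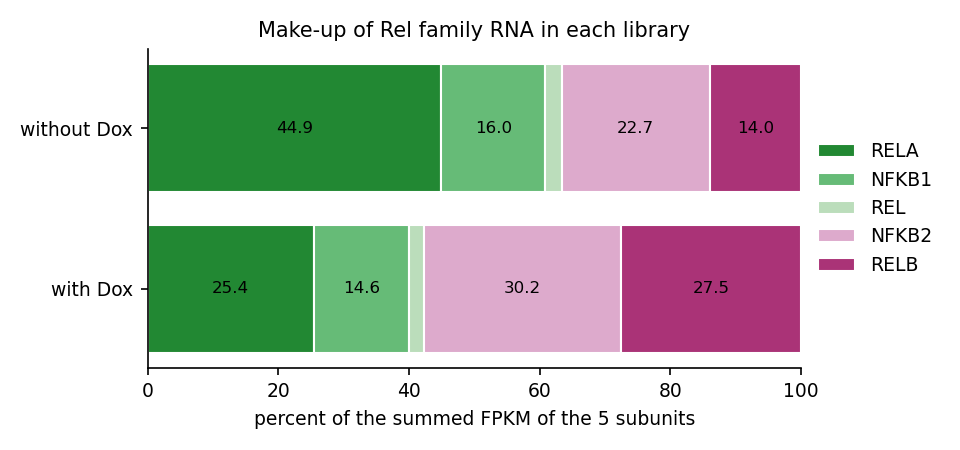
Share of each of the 5 subunits in their summed FPKM (horizontal axis, percent) in the library labelled without Dox (upper bar) and with Dox (lower bar), with canonical subunits in green and noncanonical subunits in purple. RELA takes 44.9% of the upper bar and 25.4% of the lower one, and RELB 14% and 27.5%.

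Ratios of 2 genes within a library need no scaling between libraries. The ratio of RELB to RELA, in FPKM, was 0.31 without Dox (interval 0.30 to 0.33) and 1.08 with Dox (interval 1.04 to 1.12). For NFKB2 over NFKB1 it was 1.42 (1.36 to 1.48) without Dox and 2.07 (2.004 to 2.14) with Dox. RELB over its partner NFKB2 was 0.62 (0.58 to 0.65) and 0.91 (0.88 to 0.94). None of these pairs of intervals overlapped, so each shift was larger than counting error, while its size against the variation between cultures was not measured.

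Among the inhibitors and feedback genes, higher values with Dox were listed for NFKBIA and TNFAIP3 and a lower one for NFKBIE, each within 2-fold. NFKBIA (ENSG00000100906.10, chromosome 14 from 35401511 to 35404749) encodes IkBα, which holds RELA dimers in the cytoplasm. It was listed at 43.30 FPKM from 2150 counts without Dox and at 58.82 FPKM from 3318 counts with Dox, a log2 ratio of 0.44 (interval 0.36 to 0.52). TNFAIP3 (ENSG00000118503.14, chromosome 6 from 137867188 to 137883312) encodes A20, a ubiquitin-editing enzyme that ends canonical signalling. Its level was 22.25 FPKM without Dox and 35.84 FPKM with Dox, and its log2 ratio of 0.69 (interval 0.62 to 0.75) was the highest of the canonical members.

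NFKBIE (ENSG00000146232.16, chromosome 6 from 44258166 to 44265788) encodes IkBε, an inhibitor of RELA and REL dimers. It was listed at 12.41 FPKM from 1155 counts without Dox and at 9.28 FPKM from 1017 counts with Dox. The log2 ratio of -0.42 (interval -0.54 to -0.29) was the lowest of the 10 members. It was also below 0 with TPM, TMM, median-of-ratios and CPM, the only other settings that could turn its sign. In FPKM, NFKBIE over NFKBIA was 0.29 (0.27 to 0.31) without Dox and 0.16 (0.15 to 0.17) with Dox. NFKBIA over RELA, an inhibitor over a subunit it holds, was 0.58 without Dox (0.55 to 0.61) and 0.91 with Dox (0.87 to 0.95).

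The upstream switch of the noncanonical arm differed less between the libraries than its subunits. TRAF3 (ENSG00000131323.14, chromosome 14 from 102777476 to 102911500), the adaptor that directs NIK to degradation, was listed at 11.53 FPKM without Dox and 12.03 FPKM with Dox. Its log2 ratio was 0.06, the counting interval of -0.03 to 0.15 holds 0, and the sign turned to -0.15 and -0.16 with the TMM and median-of-ratios scalings. TRAF3 was the only member whose interval held 0. MAP3K14 (ENSG00000006062.15, chromosome 17 from 45263119 to 45317145) was listed at 8.52 FPKM without Dox and 10.58 FPKM with Dox, a log2 ratio of 0.31 (interval 0.21 to 0.41). Its exons share 713 bases with the antisense gene MAP3K14-AS1, which was listed with 74.5 and 157 counts beside 1525.5 and 2051 for MAP3K14, and the use of strand in counting is not given in the sources used here. In FPKM, MAP3K14 over TRAF3 was 0.74 (0.69 to 0.79) without Dox and 0.88 (0.83 to 0.93) with Dox. NIK and TRAF3 are controlled largely as proteins, which these data do not measure.

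Compared as arms, the 6 canonical members (NFKB1, RELA, REL, NFKBIA, NFKBIE and TNFAIP3) had a median log2 ratio of 0.46, with a range of -0.42 to 0.69. The 4 noncanonical members (NFKB2, RELB, TRAF3 and MAP3K14) had a median of 0.67, with a range of 0.06 to 1.60. The difference of the medians was 0.22. A shift between the libraries cancels in it, and both filters keep every member, so only the pseudocounts and CPM could move it much. It was 0.21 and 0.23 with pseudocounts of 0.01 and 1 FPKM, and 0.20 with CPM. The ranges of the arms overlapped, since TRAF3 and MAP3K14 lay below the canonical median and NFKB2 and RELB above every canonical member. Summed FPKM set the arms further apart, as the canonical sum was 183 without Dox and 212 with Dox (log2 ratio 0.21), and the noncanonical sum 80.6 and 170 (log2 ratio 1.08).

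**Figure D3:**
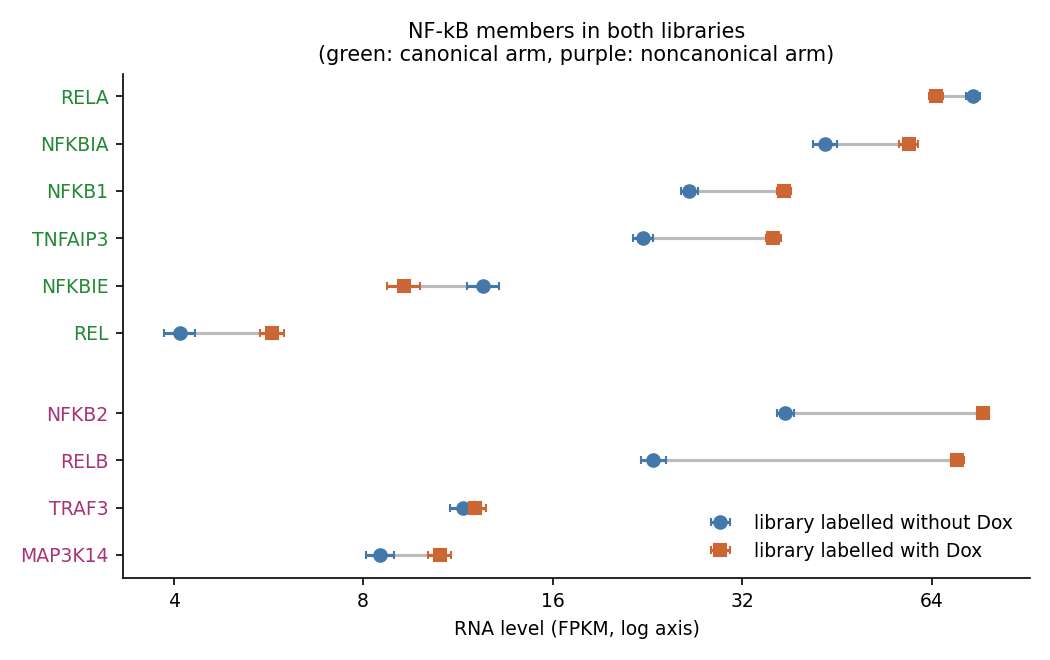
RNA level in FPKM (log axis) of the 10 members in the library labelled without Dox (blue circles) and with Dox (orange squares), with exact Poisson 95% intervals, canonical members above and noncanonical members below. The widest gaps are those of RELB, from 23.13 to 70.28 FPKM, and NFKB2, from 37.46 to 77.14 FPKM, while the points of TRAF3 overlap.

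The order of the levels within each library also differed. Without Dox, RELA was first at 74.29 FPKM, followed by NFKBIA, NFKB2, NFKB1, RELB, TNFAIP3, NFKBIE, TRAF3, MAP3K14 and REL. The intervals of 2 neighbouring pairs in this order overlapped, RELB with TNFAIP3 and NFKBIE with TRAF3. With Dox, NFKB2 was first at 77.14 FPKM, followed by RELB, RELA, NFKBIA, NFKB1, TNFAIP3, TRAF3, MAP3K14, NFKBIE and REL. Here the intervals of 1 neighbouring pair overlapped, NFKB1 with TNFAIP3. RELB had rank 5 without Dox and rank 2 with Dox, and NFKBIE had rank 7 and rank 9.

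The mean effective length listed for a gene, which depends on the mix of its transcripts and was not used to choose the genes, was longer with Dox for 8 of the 10 members. The median change was 5.63% for the members and 0.10% for the tested protein-coding genes. It was largest for NFKBIE, at 2027 bases without Dox and 2249 with Dox, and 22.9% of the protein-coding genes moved at least as far. The smallest change was that of NFKB2, at -0.82%, and 80.45% of the protein-coding genes moved at least as far. Single shifts of these sizes were thus common, and the share of all tested genes with a longer length was not counted. For RELB the lengths were 1779 and 1901 bases, a shift that 35.9% of the protein-coding genes matched or passed. FPKM divides by this length, and CPM, which does not, gave RELB a larger log2 ratio of 1.70 and NFKBIE a value nearer to 0, -0.27.

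Other genes of the pathway were taken from 8 lists of 89 genes in all, of which 69 were tested, 13 were past 2-fold higher and 4 past 2-fold lower. The share higher, 18.8%, lies near the 17.0% of all tested genes and above the 11.8% of tested protein-coding genes. The share lower, 5.8%, lies near both of theirs, 6.41% and 6.03%. The lists were chosen with earlier results of these data known, so these shares only describe them. The IKK complex, which receives the signals, had no gene past 2-fold. All 5 kinases and scaffold proteins of that list (CHUK, IKBKB, IKBKG, TBK1 and IKBKE) had ratios between -0.43 and -0.09 in FPKM, but the sign of IKBKB turned with CPM, at 0.23, and IKBKE stood at 0.002 with TPM. CHUK, the IKKα subunit that acts in both arms, was listed at 18.87 FPKM without Dox and 16.51 FPKM with Dox. IKBKB, the IKKβ subunit of the canonical arm, was listed at 20.75 and 19.25 FPKM and at 44.9 and 52.7 CPM, with effective lengths of 2162 and 2739 bases. Reads of IKBKG can be shared with its near-identical pseudogene, so its 10.74 and 8.80 FPKM are uncertain.

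Of the 4 other IkB proteins, 1 was past 2-fold higher and 0 lower, with a median of 0.14 that turned to -0.06 with TMM scaling. This was BCL3, a nuclear IkB protein that works with p50 and p52 dimers, at 10.20 FPKM without Dox and 21.83 FPKM with Dox. Its log2 ratio of 1.09 (interval 0.95 to 1.23) was 0.88 with TMM scaling. NFKBID, another nuclear IkB protein, was listed at 9.99 and 5.94 FPKM (log2 ratio -0.74, and -1.12 with CPM, past 2-fold lower), and NFKBIZ at 7.09 and 8.53 FPKM. NFKBIB, which encodes IkBβ, was listed at 38.59 and 39.20 FPKM.

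Of the 15 TRAF, cIAP and adaptor genes, 2 were past 2-fold higher and 0 lower, and the median was -0.06, with 0.03 in TPM. With a pseudocount of 1 FPKM, 0 were past 2-fold higher. BIRC3 encodes cIAP2, which acts with TRAF3 on NIK and is a known target of NF-kB, and its level was 3.36 FPKM without Dox and 7.35 FPKM with Dox (log2 ratio 1.11, and 0.90 with TMM scaling). BIRC2, which encodes cIAP1, was listed at 19.95 and 33.42 FPKM (log2 ratio 0.74). TRAF1, the other gene past 2-fold, had a low level of 0.57 and 2.12 FPKM, and is named to complete that count. The lowest ratio in the list was that of MYD88, the adaptor of Toll-like receptors, at 21.78 and 11.77 FPKM (log2 ratio -0.88, and past 2-fold lower with TMM scaling).

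Of the 10 linear ubiquitin and deubiquitinase regulators, 2 were past 2-fold higher and 0 lower, with a median of 0.38. RBCK1 encodes HOIL-1, a part of the linear ubiquitin ligase that also contains the products of RNF31 and SHARPIN. It was listed at 14.40 FPKM without Dox and 53.23 FPKM with Dox (log2 ratio 1.88). CYLD, a deubiquitinase that limits NF-kB signalling, was listed at 11.47 and 31.75 FPKM (log2 ratio 1.46). RNF31, the catalytic partner of RBCK1, lay in the other direction at 23.14 and 17.26 FPKM (log2 ratio -0.42). TAX1BP1 and ITCH, which act with A20, had log2 ratios of 0.73 and 0.56.

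The receptor genes were split. Of the 13 listed, 9 were tested. Of these, 2 were past 2-fold higher and 4 past 2-fold lower, beside 17.0% and 6.41% of all tested genes. The median of the 9 was -0.91. That median depends on the treatment of low values, as it was -0.58 with a pseudocount of 1, -0.40 at 5 FPKM or more and -0.27 with no filter. TNFRSF17 (BCMA, a receptor of plasma cells for BAFF and APRIL) was listed at 97.72 FPKM without Dox and 203.7 FPKM with Dox (log2 ratio 1.06), which was 0.85 with TMM scaling. TNFRSF1A (TNF receptor 1) was listed at 14.32 and 37.65 FPKM (log2 ratio 1.39). In contrast, TNFRSF1B (TNF receptor 2) was listed at 40.19 FPKM without Dox and 14.20 FPKM with Dox (log2 ratio -1.49), and TNFRSF8 (CD30) at 16.12 and 5.46 FPKM (log2 ratio -1.54). The other 2 genes past 2-fold lower, TLR4 and TNFRSF12A, had levels under 5 FPKM in both libraries and are named here because they complete that count. TLR4 reached 1 FPKM only without Dox, with 3.58 FPKM there and 0.78 FPKM with Dox. At 5 FPKM or more, 2 receptor genes were past 2-fold lower. CD40 was listed with 0 counts in both libraries, where a count of 0 allows up to 3 counts, or 0.065 and 0.062 CPM (counts scaled to the library's total).

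Of the 36 target genes, which exclude the 10 members and share 8 genes with the other lists, 26 were tested. The number past 2-fold higher was 8 and past 2-fold lower 0, with a median of 0.59. Beside this stand 17.0% higher and a median of 0.15 over all tested genes, and 11.8% and 0.07 over the protein-coding ones. The list was chosen with earlier results of these data known, so this comparison is a description and not independent support. With TMM scaling the numbers were 6 and 1 and the median 0.38, and over the 8 other settings the number higher was between 5 and 10. The median also depends on the filter. With no filter it was 0.33, beside 0.17 over all genes in that setting. At 5 FPKM or more it was 0.53, beside 0.08 over all genes in that setting. Of the 8 higher genes, TRAF1, PLEK and IL6 reached 1 FPKM only with Dox, and PLEK and IL6 are named only for this reason. TRAF1, BIRC3 and BCL3 were already counted in the lists above. At 5 FPKM or more, 5 target genes were past 2-fold higher. CFLAR, an inhibitor of caspase-8, was listed at 13.83 FPKM without Dox and 42.30 FPKM with Dox (log2 ratio 1.61). The chemokine genes CCL3 and CXCL10 had log2 ratios of 1.32 and 1.21, with CCL3 at 30.06 and 75.17 FPKM and CXCL10 at 0.99 with median-of-ratios scaling. XIAP, an inhibitor of caspases, had a log2 ratio of 0.90, and 0.65 in CPM. Of its 26 tested genes, 18 lay above 0 and 8 below, beside 58.4% of all tested genes above 0. Among the 8 below 0, named after their values were seen, CD74, the invariant chain of MHC class II, was listed at 134.1 and 92.22 FPKM (log2 ratio -0.54). SOD2, a mitochondrial superoxide dismutase, was listed at 37.65 and 23.40 FPKM (log2 ratio -0.68). Its effective lengths were 2148 and 2900 bases, and its log2 ratio was -0.25 in CPM. The chemokine gene CCL5 was listed at 41.39 and 34.01 FPKM (log2 ratio -0.28).

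**Figure D4:**
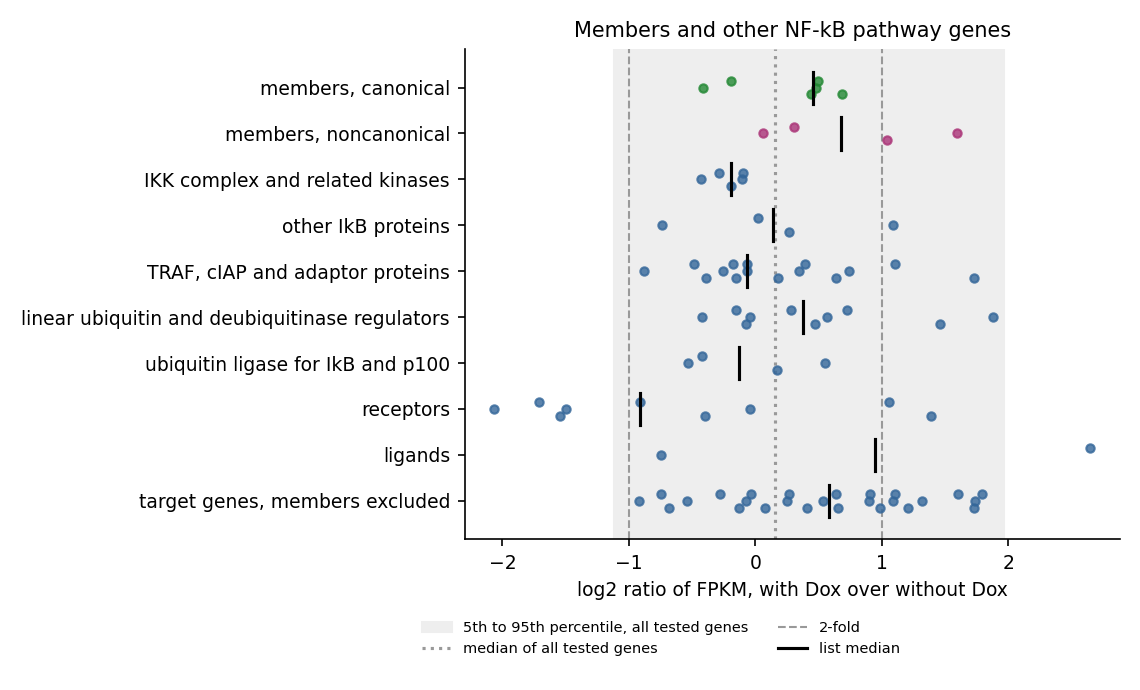
Log2 ratio of FPKM, with Dox over without Dox, of each tested gene (points) in the 2 arms and the 8 other lists, with list medians as black bars, the 5th to 95th percentile of all tested genes in grey and 2-fold as dashed lines. Most points of the lists lie inside the grey band, the 5 genes of the IKK list lie between -0.43 and -0.09, and the receptors spread to both sides.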

How the data were processed

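Poly(A) RNA of ARP1 cells was read in pairs of 150 bases, in 1 library per condition. For each gene the authors deposited an expected count, a TPM value (its share of all transcripts) and an FPKM value, beside its mean and effective length. Expected counts need not be whole where reads are shared between genes. The submitters' processing notes name HISAT2 2.1.0, StringTie 1.3.4d, Bowtie 0.12.2 and hg19, without their roles. The transcripts listed were in the GRCh38 annotation of GENCODE release 29, with the same version, for 202888 of 204675, and gene coordinates are from that annotation. For MAP3K14 this held for 3 of 6 transcripts, and for the other members for all.

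The members, arms and gene lists were chosen with earlier results of these data known. A pseudocount of 0.1 FPKM was added before each ratio, genes under 1 FPKM in both libraries were left out, and those past 2-fold were counted. Such a ratio understates the change of low genes. The study used edgeR to call genes, but no test was run here, since 1 library per condition gives no dispersion. edgeR 4.0.16 and DESeq2 1.42.0 in R 4.3.3 gave only the TMM (trimmed mean of M values) and median-of-ratios factors of 2 alternatives, from expected counts rounded to whole numbers over genes with at least 10 counts. Python 3.11.15, pandas 2.3.3, numpy 2.4.6, scipy 1.17.1 and matplotlib 3.10.9 were used for the rest. Named genes were the 10 members, SRD5A1 and up to 6 genes per list with the largest ratios among those with at least 5 FPKM, of which some are given only by counts. The ratio and interval steps were tested on simulated data. One pathway list and 1 marker list are not reported here.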

Additional observations from a re-analysis of the deposited data

How the results depend on the processing

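The alternatives were another pseudocount (0.01 or 1 FPKM), no filter on low values or at least 5 FPKM, TPM, TMM or median-of-ratios scaling, and CPM. No paired analysis was possible because each condition has 1 library. The median of all tested genes moved by 0.11 with TPM, by -0.22 with TMM and by -0.23 with median-of-ratios scaling, and the members moved with it. The median of the members, which equals that of the canonical arm, went from 0.46 to 0.56 with TPM, 0.25 with TMM and 0.24 with median-of-ratios, and that of the noncanonical arm from 0.67 to 0.77, 0.47 and 0.46. Relative to the median of all genes, RELB stood at 1.45 in the deposited FPKM and 1.46 with TMM, NFKB2 at 0.89 and 0.90, and RELA at -0.35 and -0.34. The number of members past 2-fold higher was 1 instead of 2 with TMM and with median-of-ratios, since NFKB2 then lay within 2-fold. Over all tested genes, 2521 were higher and 953 lower, which makes 72.6% of those past 2-fold higher ones. The numbers were 1606 higher with a pseudocount of 1, 4735 higher and 1897 lower with no filter, and 1256 higher and 603 lower at 5 FPKM. They were 1548 lower with TMM and 1586 lower with median-of-ratios, where 54.8% and 53.9% of the genes past 2-fold were higher. A filter or a pseudocount cannot turn the sign of a single gene, so only TPM, TMM, median-of-ratios and CPM bear on it. With these the signs of 9 of the 10 members stayed the same, and that of TRAF3 turned with TMM and median-of-ratios. Counting error is small for the members, which had at least 1017 counts each, and the variation between cultures was not measured.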

Other observations

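Of the 4 genes of the ubiquitin ligase that marks IkB proteins and p100, 0 were past 2-fold, and they lay on both sides of 0. FBXW11, one of its substrate receptors, was listed at 22.33 and 32.71 FPKM (log2 ratio 0.55), and CUL1, its scaffold, at 146.3 and 101.05 FPKM (log2 ratio -0.53).

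Ligand RNAs of the pathway were scarce in both libraries. Of 10 ligand genes, 2 were tested and 4 were listed with 0 counts in both (CD40LG, TNFSF11, TNFSF12 and IL1B). CD70, the ligand of CD27, was past 2-fold higher at low counts, 9 without Dox and 72 with Dox. LTA, which encodes lymphotoxin alpha, had 6 and 56 counts, and TNF had 6 and 3. CD70, LTA and TNF are named after their values were seen.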
